A study of Homo sapiens with 6 samples.

Results

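The insulin-like growth factor (IGF) system was followed in C4-2 cells through 10 genes: the binding protein genes IGFBP2, IGFBP3, IGFBP4, IGFBP5 and IGFBP6, the receptor genes IGF1R, INSR and IGF2R, and the adaptor genes IRS1 and IRS2. They were picked by symbol from the 62696 gene rows, and each symbol matched 1 row. They were chosen with the knockout and vector read counts known, so their values are a description: no test is read from them and nothing is supported by them.

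IGF1 and IGF2 are secreted growth factors that bind IGF1R, a receptor tyrosine kinase and close relative of the insulin receptor INSR. Both receptors signal through the docking proteins IRS1 and IRS2 to PI3K and AKT, a route known to promote growth and survival of prostate cancer cells. IGF2R has no kinase, carries mannose 6-phosphate tagged enzymes to lysosomes and clears IGF2. The binding proteins are secreted, hold IGF outside the cell and can block it or deliver it to the receptor.

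C4-2 cells, a human prostate cancer line that grows without androgen, were untreated according to the labels. The CDK12KO group held 3 RNA libraries of C4-2 cells in which CDK12, a kinase of elongating RNA polymerase II, was knocked out with CRISPR-Cas9 (the knockout libraries). The VEC group held 3 libraries of C4-2 cells with the vector and a wild-type genotype (the vector libraries). The labels do not say whether the knockout line was 1 clone or a pool, or whether replicates were separate cultures. The spread between libraries may therefore be technical, and loss of CDK12 cannot be told apart from other differences between the lines.

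Total reads were 26357250 to 30732841 in the knockout libraries and 24660798 to 25879375 in the vector libraries. Knockout library 2 stood apart: its log2 CPM (reads scaled to library size) correlated across genes at 0.916 to 0.950 with the other libraries, which correlated at 0.977 to 0.990 among themselves. Many results are therefore also given without it. CDK12 RNA was at 60.8, 56.9 and 56.5 CPM in the knockout libraries and 60.2, 47.98 and 57.1 CPM in the vector libraries (log2 fold change 0.08 ± 0.13, SE), so whole-gene RNA gave no check of the knockout label. All 10 prostate luminal markers were at 1 CPM or more in every library. In bulk RNA, fewer cells of a type and less RNA per cell cannot be told apart.

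Of the 10 genes, 7 passed the filter on low counts, and IGFBP4, IGFBP5 and IGFBP6 did not. In edgeR's quasi-likelihood fit over 15783 genes, 2 of the 7 lay past an adjusted p of 0.05, IGFBP3 higher and IGF1R lower in the knockout libraries, where 0.596% of all tested genes did. Without knockout library 2 there were 4 of 7, with IGF2R and IRS1 also lower, where 19.1% of all tested genes were past it. The knockout and vector values did not overlap for 4 of the 7, against 39.4% of all tested genes. Nothing is read from these counts, since the same contrast chose the genes.

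**Figure D1:**
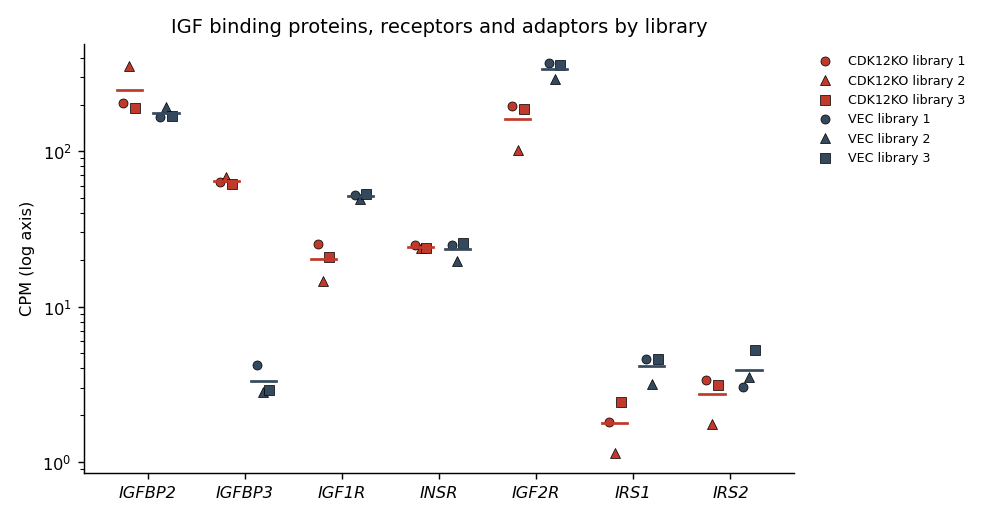
CPM (log axis) of the IGF genes in each library, with the knockout libraries left of the vector libraries for each gene, a symbol per library and a horizontal bar at each group's mean. IGFBP3 lay at 63.7, 68.5 and 61.8 CPM in the knockout libraries, above all vector libraries, while IGF1R, IGF2R and IRS1 lay below all vector libraries.

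Of the 7 genes past the filter, IGFBP3 differed most. It encodes the main carrier of IGF in blood and is also known for growth-inhibiting actions that do not need IGF. IGFBP3 (ENSG00000146674.16, chromosome 7, 45912245 to 45921874, minus strand, GRCh38) had 1349, 1088 and 1195 reads in knockout libraries 1 to 3, against 82, 50 and 53 in vector libraries 1 to 3. This was 63.7, 68.5 and 61.8 CPM in the knockout libraries and 4.20, 2.80 and 2.91 CPM in the vector libraries. The 3 knockout libraries lay close together, far above every vector library. Library 2 was level with the other two on this scale, but not per length without the library factors, where IGFBP3 was at 60.3, 38.4 and 58.8 TPM in the knockout libraries and 4.29, 2.64 and 3.02 TPM in the vector libraries. The log2 fold change was 4.29 ± 0.19 (SE), and 4.23 ± 0.14 without knockout library 2. A larger one was seen for 9 of the 15783 tested genes. Across the 15 alternative fits it ranged from 4.17 to 4.50.

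The promoter of IGFBP3 is shown because this gene carried the widest difference. It is the 250 bases before the start given by RefSeq (GRCh38.p14, chr7:45921273-45921522, minus strand), printed 5′ to 3′. The RefSeq start lies 602 bases downstream of the GENCODE start, so the window is inside the gene as placed above. Capitals mark a GC box (GGGCGG or CCGCCC, the motif read on both strands) or a TATA motif (TATANA or TNTATA).
IGFBP3: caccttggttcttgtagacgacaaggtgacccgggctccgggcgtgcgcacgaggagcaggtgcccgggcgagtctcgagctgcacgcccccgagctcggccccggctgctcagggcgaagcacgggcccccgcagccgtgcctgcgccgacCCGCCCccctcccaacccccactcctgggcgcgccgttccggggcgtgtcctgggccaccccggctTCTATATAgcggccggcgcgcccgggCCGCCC
The 2 TATA matches, TCTATA and TATATA, overlap, and the nearer ends 24 bases before the start, between 2 GC boxes. Of 35116 RefSeq promoter windows of this length, 17.7% hold a TATA motif and 42.6% a GC box. The AP-1 motif TGANTCA (6.57% of windows), the FOXO motif TGTTTAC or GTAAACA (2.98%) and the E-box CACGTG (6.34%) are not in this window.

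IGFBP2 was the most abundant of the 10 genes per length. IGFBP2 (ENSG00000115457.10, chromosome 2, 216632828 to 216664436, plus strand) encodes a binding protein that prefers IGF2 and stood at 204, 354 and 191 CPM in the knockout libraries, against 166, 192 and 169 CPM in the vector libraries. Knockout library 2 was high and knockout library 3 lay below vector library 2, so the groups overlapped. The log2 fold change was 0.51 ± 0.25 (SE), and 0.16 ± 0.07 without knockout library 2.

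The other 3 binding protein genes were near the limit of detection. IGFBP4 (ENSG00000141753.7, chromosome 17, 40443461 to 40457731, plus strand) had 2, 5 and 7 reads in the knockout libraries and 1, 1 and 7 in the vector libraries. The ratio of its summed reads, scaled for library size, was 1.53 (exact 95% counting interval 0.618 to 4.02), so a difference was not detectable at this depth. IGFBP5 (ENSG00000115461.5, chromosome 2, 216672105 to 216695525, minus strand) had 3, 0 and 0 reads in the knockout libraries and 8, 8 and 5 in the vector libraries. Every knockout library was below every vector library, with a ratio of 0.141 (0.0269 to 0.472). Its exons overlap an antisense gene by 298 bases, and reads from the overlap cannot be assigned to either gene here. The summed stranded counts of IGFBP5 were 1.667 times the unstranded count in knockout library 1. They were 1.125 times it in vector libraries 1 and 2 and 1 times it in vector library 3, so the reads given may be undercounts. IGFBP6 (ENSG00000167779.9, chromosome 12, 53097436 to 53102345, plus strand), selective for IGF2, had 3, 2 and 0 reads in the knockout libraries and 0 in each vector library, too few for a fold to be given. These intervals cover counting error only, since PCR reads are not independent molecules.

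Among the receptors, IGF1R was lower in the knockout libraries while INSR overlapped. IGF1R (ENSG00000140443.15, chromosome 15, 98648539 to 98964530, plus strand) was at 25.1, 14.5 and 20.8 CPM in the knockout libraries, against 52.4, 48.98 and 52.7 CPM in the vector libraries. The vector libraries lay close together, all above the highest knockout library. IGF1R had a log2 fold change of -1.35 ± 0.20 (SE), and -1.17 ± 0.10 without knockout library 2. It was past the threshold in both of these fits but not when any of the other 5 libraries was left out.

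INSR (ENSG00000171105.14, chromosome 19, 7112255 to 7294034, minus strand) was at 24.8, 23.7 and 23.8 CPM in the knockout libraries and 24.9, 19.6 and 25.6 CPM in the vector libraries. The knockout values all lay inside the vector range. The log2 fold change was 0.04 ± 0.15 (SE), and 0.05 ± 0.12 without knockout library 2, which does not show that the level was the same.

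IGF2R (ENSG00000197081.16, chromosome 6, 159969099 to 160113507, plus strand) was the most abundant receptor gene, at 196, 101 and 186 CPM in the knockout libraries, against 368, 292 and 361 CPM in the vector libraries. Every knockout library lay below every vector library, and knockout library 2 was the lowest. IGF2R had a log2 fold change of -1.08 ± 0.26 (SE) with all libraries, short of the threshold, and -0.84 ± 0.09 without knockout library 2, past it.

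The receptor promoters are set side by side because IGF1R and IGF2R were lower in the knockout libraries and INSR was not. Each is the 250 bases before the RefSeq start (GRCh38.p14), at chr15:98648289-98648538 (plus strand), chr6:159968832-159969081 (plus strand) and chr19:7294415-7294664 (minus strand). Capitals mark the GC box, as above, and the E-box CACGTG, which reads the same on both strands.
IGF1R: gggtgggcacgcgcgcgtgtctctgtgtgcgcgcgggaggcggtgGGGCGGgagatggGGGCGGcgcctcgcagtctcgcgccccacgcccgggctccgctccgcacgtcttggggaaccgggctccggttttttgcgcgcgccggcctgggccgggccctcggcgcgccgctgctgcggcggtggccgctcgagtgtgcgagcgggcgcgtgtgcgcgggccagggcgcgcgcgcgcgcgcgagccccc
IGF2R: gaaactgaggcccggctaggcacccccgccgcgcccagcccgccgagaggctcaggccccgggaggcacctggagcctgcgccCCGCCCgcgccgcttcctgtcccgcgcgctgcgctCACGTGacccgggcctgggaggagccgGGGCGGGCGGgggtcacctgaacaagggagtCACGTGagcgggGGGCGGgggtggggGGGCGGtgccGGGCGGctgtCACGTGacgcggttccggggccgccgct
INSR: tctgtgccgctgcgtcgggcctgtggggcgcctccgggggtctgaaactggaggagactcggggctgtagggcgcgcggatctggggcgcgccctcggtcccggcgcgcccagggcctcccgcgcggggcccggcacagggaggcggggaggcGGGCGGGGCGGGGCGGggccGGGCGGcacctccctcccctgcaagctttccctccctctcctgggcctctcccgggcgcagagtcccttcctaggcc
IGF1R holds 2 GC boxes, IGF2R 6 and INSR 4, overlapping matches included. The E-box occurs 3 times in IGF2R and in neither of the others. The RefSeq start of IGF1R is that of GENCODE, while those of IGF2R and INSR lie 17 and 380 bases upstream of it. The TATA, AP-1 and FOXO letters are in none of these windows. The GC content was 81.2% for IGF1R, 79.2% for IGF2R and 78.4% for INSR.

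A ratio of 2 genes within a library does not depend on how libraries are scaled. IGF1R over INSR, in reads per kb of the longest transcript, was 0.742, 0.448 and 0.641 in the knockout libraries, against 1.54, 1.83 and 1.51 in the vector libraries. INSR was thus the higher of the pair in each knockout library and IGF1R in each vector library. IGF2R over INSR was 5.04, 2.72 and 4.99 in the knockout libraries and 9.41, 9.50 and 8.998 in the vector libraries. IGF2R over IGF1R was 6.80, 6.07 and 7.78 in the knockout libraries and 6.12, 5.19 and 5.97 in the vector libraries, and these groups overlapped. IGFBP3 over IGFBP2 was 0.570, 0.354 and 0.593 in the knockout libraries and 0.0463, 0.0266 and 0.0316 in the vector libraries, and these groups did not overlap.

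**Figure D2:**
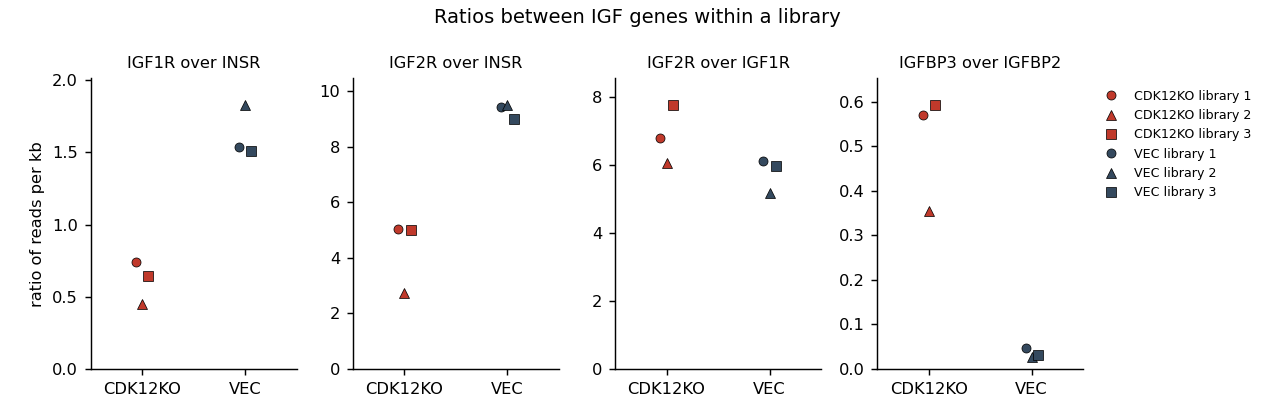
Ratio of reads per kb of longest transcript between pairs of IGF genes in each library (1 symbol per library), with knockout libraries left of vector libraries. IGF1R over INSR was 0.742, 0.448 and 0.641 in the knockout libraries and 1.54, 1.83 and 1.51 in the vector libraries, while IGF2R over IGF1R overlapped.

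The adaptors, which link the receptors to PI3K, were expressed at low levels. IRS1 (ENSG00000169047.6, chromosome 2, 226731317 to 226799759, minus strand) had 38, 18 and 47 reads, or 1.79, 1.13 and 2.43 CPM, in the knockout libraries, against 90, 57 and 84 reads, or 4.61, 3.19 and 4.62 CPM, in the vector libraries. All vector libraries were above the knockout range. The log2 fold change was -1.20 ± 0.33 (SE), and -0.98 ± 0.27 without knockout library 2. IRS2 (ENSG00000185950.9, chromosome 13, 109752698 to 109786568, minus strand) was at 3.35, 1.76 and 3.10 CPM in the knockout libraries and 3.02, 3.53 and 5.22 CPM in the vector libraries, and these groups overlapped. IRS2 had a log2 fold change of -0.51 ± 0.33 (SE), and -0.28 ± 0.26 without knockout library 2.

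**Figure D3:**
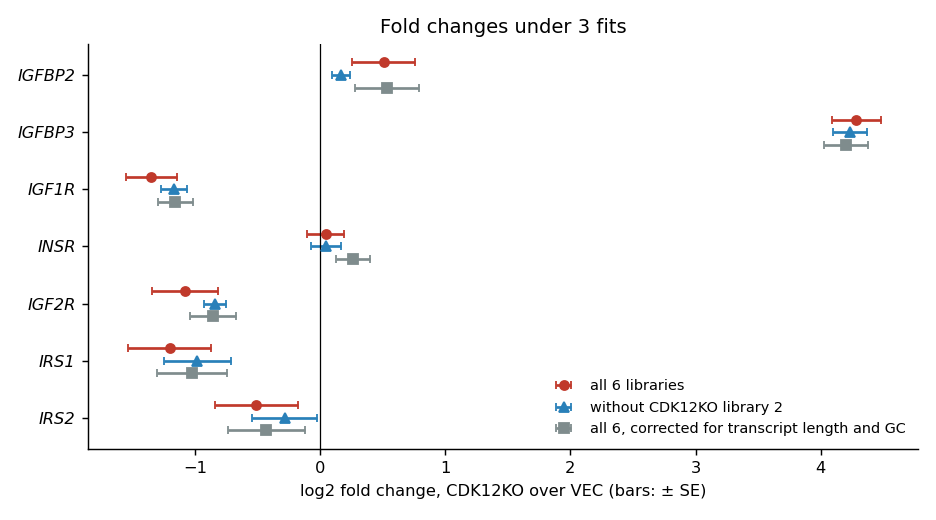
Log2 fold change, CDK12KO over VEC, of the IGF genes with bars of 1 SE, in the fits with all libraries, without knockout library 2 and with length and GC correction. IGFBP3 lay at 4.29 ± 0.19 with all libraries and IGF1R at -1.35 ± 0.20, and INSR lay near 0.

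Per length, the order of the genes differed between the groups. Levels here are reads per kb of the longest transcript scaled to a common total (TPM), without the library factors behind CPM. Every knockout library had the order IGFBP2, IGFBP3, IGF2R, INSR, IGF1R, and every vector library the order IGFBP2, IGF2R, IGF1R, INSR, IGFBP3, ahead of the other genes. In the knockout libraries the means were 105 ± 4.82 TPM for IGFBP2, 52.5 ± 12.2 for IGFBP3, 24.02 ± 12.4 for IGF2R, 5.34 ± 1.52 for INSR and 3.40 ± 1.60 for IGF1R (SD, n = 3). In the vector libraries they were 95.9 ± 3.30 TPM for IGFBP2, 3.32 ± 0.864 for IGFBP3, 58.8 ± 9.91 for IGF2R, 6.34 ± 1.18 for INSR and 10.2 ± 0.911 for IGF1R (SD, n = 3). The knockout means of INSR and IGF1R, neighbours in that order, lay within their spread across libraries, although INSR was the higher in each knockout library. The means of IRS2 and IRS1 did so too, at 0.703 ± 0.357 and 0.385 ± 0.211 TPM in the knockout libraries and 1.17 ± 0.380 and 1.04 ± 0.250 TPM in the vector libraries. Within libraries, IRS1 over IRS2 was 0.449, 0.539 and 0.657 in the knockout libraries and 1.28, 0.759 and 0.741 in the vector libraries.

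IGFBP3 made up 36.2%, 26.1% and 37.1% of the summed TPM of the 5 binding protein genes in the knockout libraries, against 4.42%, 2.59% and 3.04% in the vector libraries. That sum was 166, 147 and 158 TPM in the knockout libraries and 97.1, 102 and 99.3 TPM in the vector libraries. INSR made up 14.7%, 23.97% and 15.1% of the receptor sum in the knockout libraries, against 8.37%, 8.11% and 8.69% in the vector libraries. The receptor sum was 42.9, 14.97 and 40.4 TPM in the knockout libraries and 82.04, 61.4 and 82.4 TPM in the vector libraries. Neither share nor sum overlapped between the groups. Library 2 had the lowest of both sums among the knockout libraries.

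The median shift of all tested genes from the vector mean varied with transcript length in the knockout libraries. The longest transcripts of IGF1R, IGF2R, INSR, IRS1 and IRS2 have 12235, 14044, 8954, 9705 and 8138 bases, and those of IGFBP3 and IGFBP2 2412 and 4414. Over the 1619 tested genes longer than 7 kb, knockout libraries 1 to 3 had median log2 shifts of -0.13, -0.50 and -0.15 from the vector mean, and over the 4092 genes under 2 kb shifts of 0.14, 0.66 and 0.18. Long genes were thus lowest in knockout library 2. IGF1R shifted by -1.03, -1.81 and -1.30 and INSR by 0.09, 0.03 and 0.04 in the same libraries. Relative to the median of their length class, IGF1R lay at -0.89, -1.31 and -1.15, IGF2R at -0.65, -1.24 and -0.72 and INSR at 0.23, 0.53 and 0.18. With each library corrected for its trend over length and GC content, the log2 fold change was -1.16 ± 0.14 (SE) for IGF1R, -0.86 ± 0.18 for IGF2R, 0.26 ± 0.13 for INSR and 4.20 ± 0.18 for IGFBP3. This correction also removes any length trend due to the knockout. Of the genes over 7 kb, 1.05% had a log2 fold change below that of IGF1R and 2.78% below that of IGF2R, against 1.06% and 2.47% of all tested genes.

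**Figure D4:**
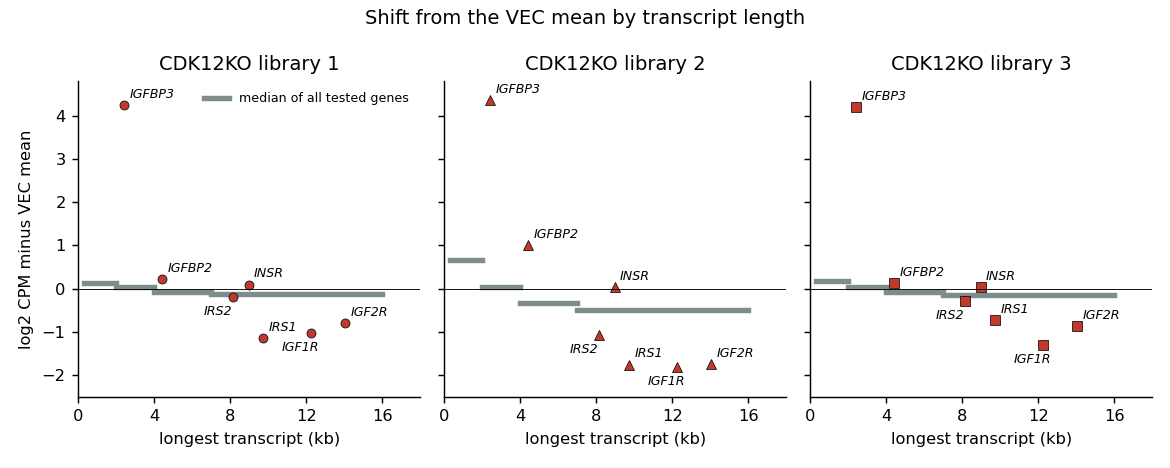
Log2 CPM minus the vector mean of the IGF genes against the length of the longest transcript, in 1 panel per knockout library, with grey bars at the median of all tested genes in each length class. The medians over 7 kb were -0.13, -0.50 and -0.15 in libraries 1 to 3, and IGF1R, IGF2R and IRS1 lay below them in each panel.

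On chromosome 7, IGFBP3 lies 18.6 kb from IGFBP1, a binding protein gene known for its regulation by insulin. IGFBP1 was below the filter, with 2, 4 and 10 reads in the knockout libraries and 0, 0 and 1 in the vector libraries (ratio of sums 15.8, exact 95% counting interval 2.45 to 661). ADCY1, an adenylate cyclase gene and the nearest tested protein-coding gene on that side, was at 4.63, 4.66 and 6.15 CPM in the knockout libraries and 2.61, 1.68 and 2.36 CPM in the vector libraries. All knockout libraries were above the vector libraries (log2 1.21 ± 0.26 SE, edgeR adjusted p = 0.108), and ADCY1 rose without knockout library 2 (log2 1.27 ± 0.25, edgeR adjusted p = 0.00144). ADCY1 lies 189129 bases from IGFBP3, and HUS1, on the other side, 2041414 bases. HUS1 overlapped between the groups (log2 0.14 ± 0.14, edgeR adjusted p = 0.519).

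The tested neighbours of IGF1R overlapped between the groups, ARRDC4 at log2 -0.14 ± 0.21 and SYNM at -0.05 ± 0.27 (SE; edgeR adjusted p = 0.667 and 0.912). ARRDC4 lies 674701 bases and SYNM 133687 bases from IGF1R. IGFBP2 and IGFBP5 lie 7.67 kb apart. On either side of that pair were RPL37A, a ribosomal protein gene, at log2 1.29 ± 0.49, and TNS1 at 0.83 ± 0.43 (edgeR adjusted p = 0.217 and 0.276). RPL37A lies 53648 bases from IGFBP2, and TNS1 1104063 bases from IGFBP5. RPL37A rose without knockout library 2 (log2 0.44 ± 0.07, edgeR adjusted p = 0.000106).

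Likeness to IGFBP3 and IGF1R was measured as the root-mean-square difference in log2 CPM minus the vector mean over the 6 libraries, for 9761 protein-coding genes whose mean reached 5 CPM. The closest to IGFBP3 were UGT2B15 (0.424), UGT2B28 (0.636), NR2F1 (0.734), UGT2B17 (0.736) and UGT2B11 (1.12). The UGT2B genes encode steroid-conjugating enzymes and are near copies, so reads may be wrongly split between them, and NR2F1 encodes an orphan nuclear receptor. Among the closest to IGF1R were the cytochrome gene CYP1A1 (0.102), the cation transporter gene SLC22A3 (0.103), UTRN (0.110) and the adrenoceptor gene ADRA2A (0.117). The measure includes the knockout and vector gap by which the genes were chosen, and 9 of 15783 tested genes had a larger log2 fold change than IGFBP3. The smaller distances for IGF1R are therefore not read as closer likeness.

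The other genes of the pathway were 79 genes in 10 lists by role, of which 66 passed the filter. With all libraries 0 of the 66 were called by edgeR, against 0.596% of all tested genes. At so low a share, 0 calls among the 66 or in the smaller lists below do not set the pathway genes apart from other genes. An unadjusted edgeR p under 0.05 was seen for 16 (24.2%), and for 21.7% of all tested genes. DESeq2 called 4 (GRB10 and TMEM219 higher, CITED2 and PIK3CB lower), against 6.21% of all tested genes, and limma-voom called 0, against 0.665%. Without knockout library 2 edgeR called 15 (22.7%), 6 higher and 9 lower, against 19.1% of all tested genes. When the length and GC correction was added, 10 of these 15 were still called. The median log2 fold change of the 66 was -0.05, and 0.00 over all tested genes.

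**Figure D5:**
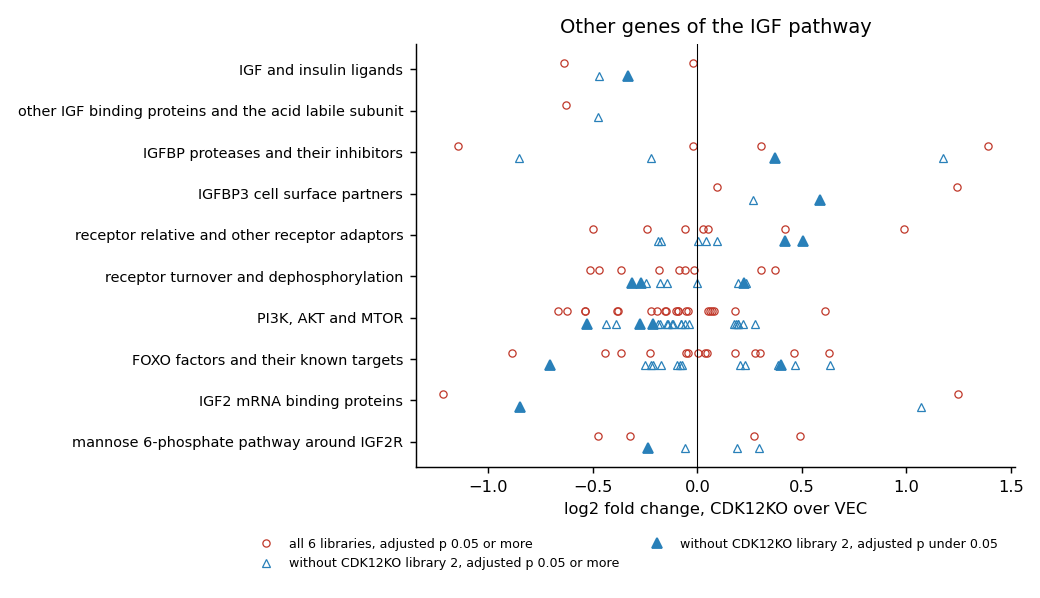
Log2 fold change, CDK12KO over VEC, of the tested pathway genes by list, with all 6 libraries (circles) and without knockout library 2 (triangles, filled where an adjusted p of 0.05 was passed). With all libraries 0 of 66 passed an adjusted p of 0.05, against 0.596% of all tested genes. Without knockout library 2 there were 15, 6 of them higher and 9 lower, against 19.1% of all tested genes.

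Among the ligands, IGF1 was at 26.96, 49.2 and 30.7 CPM in the knockout libraries and 34.5, 38.6 and 35.3 CPM in the vector libraries. Knockout library 2 was above the vector range and the other two knockout libraries below it. The log2 fold change was -0.02 ± 0.23 (SE; edgeR adjusted p = 0.953), and IGF1 fell without knockout library 2 (log2 -0.33 ± 0.10, edgeR adjusted p = 0.0258). With the length and GC correction that call was lost (log2 -0.22 ± 0.10, edgeR adjusted p = 0.129), and with all libraries the corrected value was 0.33 ± 0.35. The sum of the stranded columns gave -0.42 with all libraries. IGF2 was scarce, with 25 reads over the knockout libraries and 38 over the vector libraries (log2 -0.64 ± 0.48, edgeR adjusted p = 0.408), and INS had 0 reads in every library. IGFALS, which encodes the acid labile subunit of the circulating IGF complex, had 29 reads in the knockout group and 44 in the vector group (log2 -0.63 ± 0.45, edgeR adjusted p = 0.387).

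Of 7 genes for IGFBP proteases and their inhibitors 4 were tested, and 0 passed with all libraries. PAPPA, whose protein cuts IGFBP4, had 4 reads in the knockout group and 13 in the vector group. STC2, an inhibitor of PAPPA, was at 129 ± 11.6 CPM in the knockout libraries and 105 ± 9.37 CPM in the vector libraries (SD, n = 3 each; log2 0.30 ± 0.13 SE, edgeR adjusted p = 0.232). It rose without knockout library 2 (log2 0.37 ± 0.08, edgeR adjusted p = 0.00211). STC1, its paralog, was at log2 -0.02 ± 0.36, the protease gene HTRA1 at 1.39 ± 0.49 and the protease gene ADAM28 at -1.15 ± 0.42 (edgeR adjusted p = 0.973, 0.210 and 0.214). HTRA1 and ADAM28 were low, at mean CPM of 2.58 and 1.22 in the knockout libraries and 0.972 and 2.74 in the vector libraries. The groups did not overlap for either, as for 39.4% of all tested genes. Without knockout library 2 HTRA1 was at log2 1.18 ± 0.43 and ADAM28 at -0.86 ± 0.33 (edgeR adjusted p = 0.0598 and 0.0749).

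TMEM219, a cell surface receptor for IGFBP3, was at 101, 280 and 106 CPM in the knockout libraries and 65.7, 75.1 and 64.8 CPM in the vector libraries. All knockout libraries were above the vector range and library 2 was far above the other two. The log2 fold change was 1.24 ± 0.39 (SE; edgeR adjusted p = 0.196), and TMEM219 rose without knockout library 2 (log2 0.59 ± 0.08, edgeR adjusted p = 3.18e-05). LRP1, an endocytic receptor that binds IGFBP3, was at log2 0.09 ± 0.22 with all libraries and 0.26 ± 0.13 without knockout library 2 (edgeR adjusted p = 0.796 and 0.188).

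Among the receptor adaptors, GRB10, which dampens insulin and IGF1 receptor signalling, was at 282, 281 and 284 CPM in the knockout libraries and 220, 196 and 216 CPM in the vector libraries. The knockout libraries were almost level and all above the vector range. Its log2 difference was 0.42 ± 0.12 (SE; edgeR adjusted p = 0.177), and GRB10 rose without knockout library 2 (log2 0.42 ± 0.07, edgeR adjusted p = 0.000216). SH2B2, an adaptor of the insulin receptor, was at log2 0.99 ± 0.33, SHC1 at -0.50 ± 0.34 and GAB1 at -0.24 ± 0.31 (edgeR adjusted p = 0.205, 0.368 and 0.619), and SH2B2 rose without knockout library 2 (log2 0.50 ± 0.14, edgeR adjusted p = 0.0138). That call was lost with the length and GC correction in the same libraries (log2 0.26 ± 0.13, edgeR adjusted p = 0.148). Without knockout library 2 SHC1 was at log2 -0.17 ± 0.07 (edgeR adjusted p = 0.0864).

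In receptor turnover 0 of 9 tested genes passed with all libraries. PTPN1, a phosphatase of the insulin receptor, was at 37.1 ± 10.1 CPM in the knockout libraries and 53.1 ± 2.52 CPM in the vector libraries (SD, n = 3 each; log2 -0.51 ± 0.21 SE, edgeR adjusted p = 0.223). The GRB10 partners GIGYF1 and GIGYF2 were at log2 0.30 ± 0.13 and -0.36 ± 0.13, and the arrestin gene ARRB2 at 0.37 ± 0.16 (edgeR adjusted p = 0.232, 0.211 and 0.229). Without knockout library 2 GIGYF1 rose, and PTPN1 and GIGYF2 fell (edgeR adjusted p = 0.0449, 0.0155 and 0.0286), and ARRB2 was at log2 0.19 ± 0.08. GIGYF2 lost its call with the length and GC correction in the same libraries (log2 -0.16 ± 0.08, edgeR adjusted p = 0.155).

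Of 21 tested PI3K, AKT and MTOR genes 0 passed with all libraries; leaving out knockout library 2, 3 fell and 0 rose, against 8.88% of all tested genes that fell and 10.2% that rose. PIK3CB, a catalytic subunit of PI3K, was at 50.6, 37.2 and 54.6 CPM in the knockout libraries and 79.9, 70.3 and 75.98 CPM in the vector libraries, and the groups did not overlap. Its log2 difference was -0.67 ± 0.16 (SE; edgeR adjusted p = 0.143), and PIK3CB fell without knockout library 2 (log2 -0.53 ± 0.08, edgeR adjusted p = 0.000190). The other two that fell without it were MTOR (log2 -0.28 ± 0.08, edgeR adjusted p = 0.0234) and AKT1, named after its values were seen (log2 -0.21 ± 0.06, edgeR adjusted p = 0.0243). MTOR lost its call with the length and GC correction in the same libraries (log2 -0.18 ± 0.07, edgeR adjusted p = 0.0708). PIK3R1, a regulatory subunit, was at log2 -0.63 ± 0.27 and PHLPP2, an AKT phosphatase, at -0.54 ± 0.21 with all libraries (edgeR adjusted p = 0.234 and 0.219). Without knockout library 2 PIK3R1 was at log2 -0.44 ± 0.17 and PHLPP2 at -0.39 ± 0.16 (edgeR adjusted p = 0.0787 and 0.0871).

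Of 14 tested FOXO factors and known FOXO targets, 0 passed with all libraries. CITED2, a transcriptional coregulator, was at 27.2, 16.5 and 25.3 CPM in the knockout libraries and 48.00, 36.8 and 42.96 CPM in the vector libraries, and the groups did not overlap. On the log2 scale this was -0.89 ± 0.21 (SE; edgeR adjusted p = 0.138), and CITED2 fell without knockout library 2 (log2 -0.71 ± 0.11, edgeR adjusted p = 0.000202). SESN3, a stress-response gene named after its values were seen, rose without it (log2 0.40 ± 0.14, edgeR adjusted p = 0.0464). FOXO3 was at log2 -0.23 ± 0.12, BCL6 at -0.37 ± 0.15 and GADD45A at 0.46 ± 0.23 with all libraries (edgeR adjusted p = 0.292, 0.230 and 0.263). Without knockout library 2 these were -0.18 ± 0.10, -0.25 ± 0.10 and 0.47 ± 0.19 (edgeR adjusted p = 0.229, 0.0755 and 0.0917).

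Of the genes for proteins that bind IGF2 mRNA, IGF2BP2 was at 1.59 ± 0.321 CPM in the knockout libraries and 0.661 ± 0.138 CPM in the vector libraries (SD, n = 3 each; log2 1.25 ± 0.34 SE, edgeR adjusted p = 0.161). Its log2 fold change without knockout library 2 was 1.07 ± 0.43 (edgeR adjusted p = 0.0916). IGF2BP3 was at 2.31 ± 1.28 CPM in the knockout libraries and 5.43 ± 2.17 CPM in the vector libraries (log2 -1.22 ± 0.50, edgeR adjusted p = 0.226), and fell without knockout library 2 (log2 -0.85 ± 0.29, edgeR adjusted p = 0.0452). IGF2BP1 had 0 reads in the knockout group and 13 in the vector group.

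Around IGF2R, 0 of the 4 genes of the mannose 6-phosphate pathway passed with all libraries. M6PR, the smaller receptor of this tag, was at log2 -0.47 ± 0.48, GNPTAB and GNPTG, subunits of the enzyme that starts the tag, at -0.32 ± 0.14 and 0.27 ± 0.12, and NAGPA, which completes it, at 0.49 ± 0.20 (SE). Their edgeR adjusted p were 0.529, 0.232, 0.240 and 0.227. GNPTAB fell without knockout library 2 (log2 -0.24 ± 0.08, edgeR adjusted p = 0.0497), a call lost with the length and GC correction in the same libraries (log2 -0.14 ± 0.07, edgeR adjusted p = 0.151). Without that library M6PR was at log2 -0.06 ± 0.10 and NAGPA at 0.30 ± 0.12.

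Markers of other cells that make binding proteins were measured beside these results, and their part in them was not tested. The 9 fibroblast and smooth muscle markers summed to 25.6 to 32.7 CPM in the knockout libraries and 22.9 to 25.7 CPM in the vector libraries, with DCN and FAP at 0 in every library. COL1A1 carried most of this sum, at 21.1, 27.7 and 28.4 CPM in the knockout libraries and 19.5, 20.8 and 21.1 CPM in the vector libraries. COL3A1 was also above all vector libraries, while COL1A2 was at 0 CPM in the knockout libraries and 0.549 to 1.13 CPM in the vector libraries. The 3 endothelial markers summed to 6.61 to 10.3 CPM in the knockout libraries and 4.56 to 5.12 CPM in the vector libraries, with PECAM1 at 0 in every library. VWF carried almost all of this sum, at 6.61, 10.3 and 7.76 CPM in the knockout libraries and 5.12, 4.20 and 4.51 CPM in the vector libraries. The 3 basal markers summed to 0.283 to 1.70 CPM in the knockout libraries and 0.560 to 0.769 CPM in the vector libraries, with TP63 at 0. The 3 neuroendocrine markers summed to 2.999 to 6.67 CPM in the knockout libraries, all of it SYP, and 2.14 to 11.1 CPM in the vector libraries. The 11.1 CPM was in vector library 1 and came mostly from 1 gene. That gene had 143, 3 and 1 reads in vector libraries 1 to 3 and 0 in the knockout libraries. The 4 blood cell markers summed to 0 CPM in the knockout libraries and 0.330 to 153 CPM in the vector libraries, carried almost wholly by 1 gene that was high in vector libraries 1 and 2 and low in vector library 3 (list sums 139, 153 and 0.330 CPM), while PTPRC, CD3E and CD68 had at most 3 reads in any library. Many of these markers were below the filter on low counts and were not tested with all libraries. Tested were 4 of the 9 fibroblast and smooth muscle markers and 1 of the 3 endothelial markers. Of the others, 1 of the 3 basal, 1 of the 3 neuroendocrine and 0 of the 4 blood cell markers were tested. Of the tested markers, 0 passed in edgeR with all libraries, and without knockout library 2 COL1A2 fell and VWF rose.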

How the data were processed

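Bulk RNA sequencing of C4-2 cells was deposited by the authors as whole-number read counts per gene for 6 libraries, 3 CDK12KO and 3 VEC, grouped by their labels. Per the submitters' processing notes, FastQC and STAR with GRCh38 were used; their versions, and the annotation release, were not given in the sources used here. The unstranded counts were used. The 4 summary rows, which held 29.7% to 32.6% of a library's reads, were left out of library sizes and tests.

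The 10 genes, the gene lists and the tests were chosen with earlier results of these data known. Genes were filtered with filterByExpr, scaled by TMM and tested with edgeR 4.0.16 (R 4.3.3; robust quasi-likelihood test, Benjamini-Hochberg over all tested genes, threshold 0.05); SE was the absolute log2 fold change over the square root of F. CPM used the TMM library sizes, and log2 CPM a prior count of 2. Alternatives were DESeq2 1.42.0, limma-voom (limma 3.58.1), other scaling factors, no filter, the sum of the 2 stranded columns, a replicate block, each library left out, and an offset for each library's trend over transcript length and GC (5 df splines). That offset together with leaving out knockout library 2 was chosen after seeing the data. The code was tested on simulated data.

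Names matched 62672 of 62696 gene rows; coordinates and lengths came from GENCODE release 29 (58269 rows), promoters from RefSeq, whose table held all 10 genes. No pair of replicates agreed within sampling noise: over genes with 20 or more counts, the smallest chi-square per degree of freedom was 3.27. Besides the 10 genes, the text names up to 4 genes of each pathway list with the smallest p, all tested ligand and other binding protein genes, the 5 genes most like IGFBP3 and IGF1R, the nearest tested neighbours, and genes said to be named after their values were seen. Of these, 1 gene is not reported here.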

Additional observations from a re-analysis of the deposited data

How the results depend on the processing

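With all libraries and edgeR, 94 genes and 0 pathway genes passed. The genes passing numbered 363 with no filter on low counts, 980 with DESeq2, 160 with the length and GC correction and 3120 with that correction and without knockout library 2. The pathway genes numbered 1, 4, 0 and 13 in the same fits. Of the 15 pathway genes called without knockout library 2, 5 lost the call with the correction (SH2B2, GIGYF2, GNPTAB, IGF1 and MTOR) and 3 others gained it (KLHL24 and LRP1 higher, SHC1 lower; KLHL24 is named after its values were seen). Leaving out 1 library at a time gave 4 to 3123 genes and 0 to 15 pathway genes; knockout library 2 gave the highest of both, and the others 4 to 13 and 0. The cause of these differences was not tested.

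The replicate numbers were not shown to pair the libraries, since deviations from the group means correlated at 0.135, 0.194 and 0.0841 for numbers 1 to 3. Each of the 3 knockout libraries correlated best with its own number, a hint from the data and not the design. With the replicate block 5 genes and 0 pathway genes passed.

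IGFBP3 passed in each alternative. IGF1R missed the threshold with the replicate block, with the summed stranded columns and without each library but knockout library 2. Some log2 fold changes changed sign. INSR was -0.069 without vector library 2 (leave-one-out range -0.069 to 0.11). With the length and GC correction IGF1 was 0.33, STC1 0.15 and GAB1 0.043. Leaving out single libraries gave -0.33 to 0.14 for IGF1, -0.22 to 0.22 for STC1 and -0.057 to 0.26 for LRP1. The summed stranded columns gave 0.052 for SHC1, against -0.50 with the unstranded counts in edgeR with all libraries. Across the 15 alternative fits SHC1 ranged from -0.73 to 0.052. With the union of exons as length, the mean share of IGFBP3 was 22.1% in the knockout libraries and 1.94% in the vector libraries. Depth limits IGFBP4, IGFBP5 and IGFBP6, which had at most 8 reads in a library.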
